A study of Mus musculus with 18 samples.

Results

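The genes described here are 9 transcripts by which macrophages and monocytes are commonly recognised: Spi1, Maf, Csf1r, Mertk, Adgre1, Ly6c2, Ccr2, Cx3cr1 and Apoe. They were found by matching gene identifiers to mouse symbols in a table of raw read counts, and are 9 of the 45706 genes in it. All 9 were present and all 9 passed the filter on low counts, so 11308 genes including these 9 were tested. The cells were bone marrow-derived macrophages of C57BL/6 mice, grown for 6 days in medium with 30% L929-conditioned medium, which supplies the growth factor CSF1, and used on day 7. One genotype was wild-type and the other was labelled RelA-TA-KI, a knock-in named for RelA, a subunit of the transcription factor NF-kB. Cells of each genotype were left unstimulated or given 100 ng/ml of lipopolysaccharide (LPS), which acts through the receptor TLR4, or 10 ng/ml of the cytokine TNF, and were collected after 0.5, 1, 3 and 8 h. An age entry of 12 days accompanied every sample, without saying of what. Poly(A) RNA was sequenced from 18 libraries, 1 for each genotype in each of the 9 conditions.

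Spi1 and Maf encode transcription factors of the myeloid lineage. PU.1, the product of Spi1, binds enhancers and promoters of most macrophage genes, and MAF restrains self-renewal and favours the resident macrophage state. Csf1r, Mertk and Adgre1 encode surface proteins of mature macrophages, of which the receptor for CSF1 carries the survival signal of these cells. Ly6c2, Ccr2 and Cx3cr1 mark blood monocytes: the classical type carries much LY6C and CCR2, and the patrolling type much CX3CR1. Apoe encodes apolipoprotein E, which tissue macrophages secrete and which carries lipid out of cells.

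Library totals lay between 4663650 and 6721917 counts, and no pair of libraries held identical counts. Rela, the targeted gene, held 62.5 to 283 CPM in wild-type and 67.4 to 181 CPM in knock-in libraries, and gene counts do not show a knock-in that keeps the transcript. The 3 h TNF library of knock-in cells had the lowest total, though close to the next lowest (4739922 counts). It also had the highest share of the transcript Gm42418 (3.36%, against 1.07% to 2.93% in the others). Changes called at 3 h of TNF are therefore given with and without this library, named the stand-apart library below. With 1 library for each genotype and condition, the spread behind each test came from how the genotype pairs differed over conditions. The labels name neither separate animals nor separate cultures, so p-values measure the spread between these libraries, which may be technical, and genotype cannot be told apart from culture. In these bulk samples fewer cells of a type and less RNA per cell cannot be told apart. Values are CPM, read counts brought to a common library size with edgeR's TMM factors. Plain library totals lowered the median log2 fold change of all tested genes from -0.04 to -0.99 at 8 h of LPS, from -0.02 to -0.55 at 3 h of LPS and from -0.00 to -0.25 at 8 h of TNF, and members whose call depends on this are named beside their values.

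Per kilobase of transcript the genes fell into an abundant and a scarce set. Apoe had a median of 848 CPM per kilobase over the 18 libraries (557 to 1227), followed by Adgre1 at 215 (191 to 950.4), Csf1r at 178 (99.0 to 289), Spi1 at 76.8 (64.8 to 268), Maf at 76.5 (26.8 to 131) and Mertk at 31.5 (12.4 to 149.6). Ly6c2 had a median of 2.03 (0.262 to 11.0), Ccr2 of 1.33 (0.796 to 2.68) and Cx3cr1 of 0.223 (0 to 1.20). The ranges of neighbours in this order overlapped, except that the lowest Mertk library stood above the highest Ly6c2 library. The scarce genes rested on few reads, 571 for Ly6c2, 874 for Ccr2 and 115 for Cx3cr1 over all libraries, against 16830 to 159903 for the others.

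**Figure D1:**
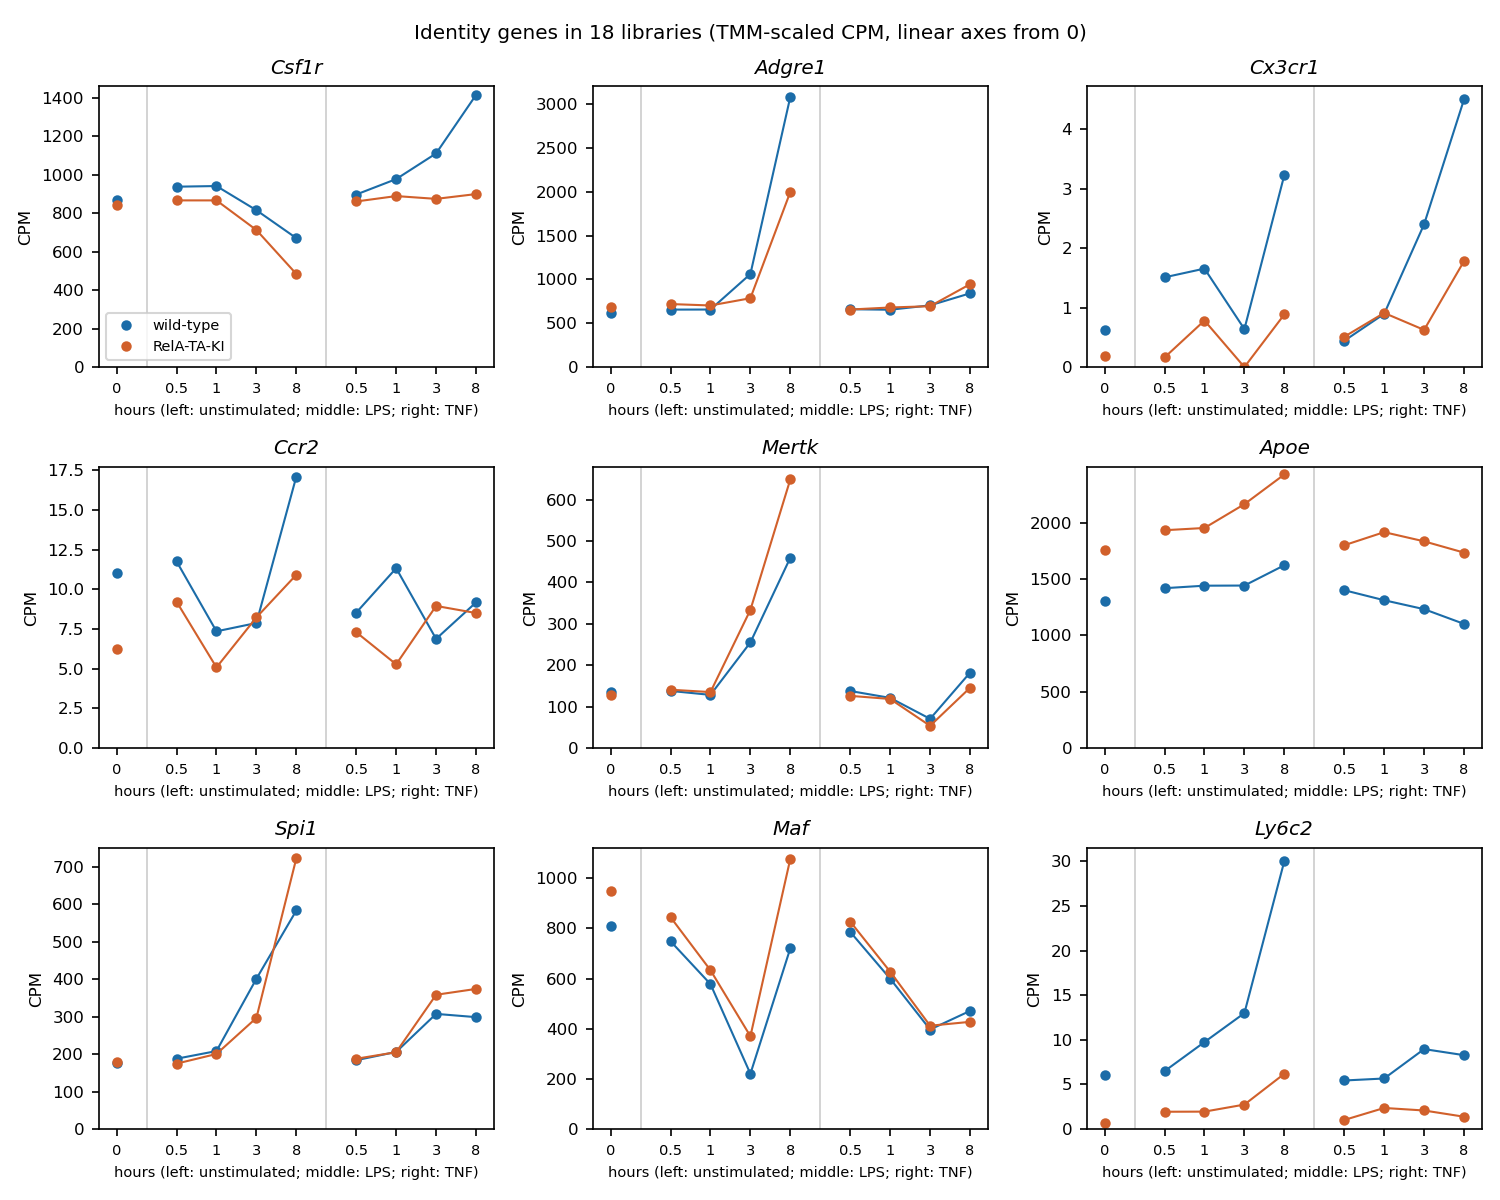
CPM (TMM-scaled, linear axes from 0) of the 9 genes in every library by hours of LPS or TNF, with wild-type libraries in blue and RelA-TA-KI libraries in orange; each point is 1 library. Spi1, Adgre1, Mertk and Ly6c2 peak at 8 h of LPS, Maf dips at 3 h, and the Apoe lines of the genotypes run apart throughout.

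None of the 9 genes passed the test within the first hour of either stimulus, most passed it at 8 h of LPS, and fewer passed it under TNF. At 0.5 h of LPS edgeR called 0 of 9 (0.92% of all tested genes), as did DESeq2 and limma-voom, and 0 had an unadjusted p under 0.05. At 1 h of LPS the count was 0 of 9 by each of the 3 tools (background 6.84%), with 2 genes at an unadjusted p under 0.05. TNF gave 0 of 9 at 0.5 h (background 0.38%) and 0 of 9 at 1 h (background 1.07%) by each tool, with 0 and 1 genes at an unadjusted p under 0.05. By 3 h of LPS 4 genes had risen and 1 had fallen (24.8% and 22.7% of all tested genes), and by 8 h 7 had risen and 1 had fallen (33.8% and 33.9%). Their median log2 fold change at 8 h of LPS was 1.88, beside -0.04 over all tested genes. For TNF, 1 gene had risen and 2 had fallen at 3 h (7.6% and 5.86%), and 3 had risen and 1 had fallen at 8 h (17.1% and 14.8%). With library totals the higher and lower counts became 3 and 3 at 3 h of LPS, 4 and 3 at 8 h of LPS, and 2 and 2 at 8 h of TNF. Over the 4 times together, all 9 passed the test of a response to LPS (background 72.2%) and 4 of 9, namely Spi1, Maf, Mertk and Cx3cr1, passed that of a response to TNF (background 30.4%). The LPS call of Cx3cr1 held in 10 of 23 alternatives, that of Ccr2 in 18 of 24 and that of Apoe in 21 of 24 (highest adjusted p 0.11). The TNF call of Cx3cr1 held in 22 of 23 and was lost without the wild-type library at 8 h of TNF.

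**Figure D2:**
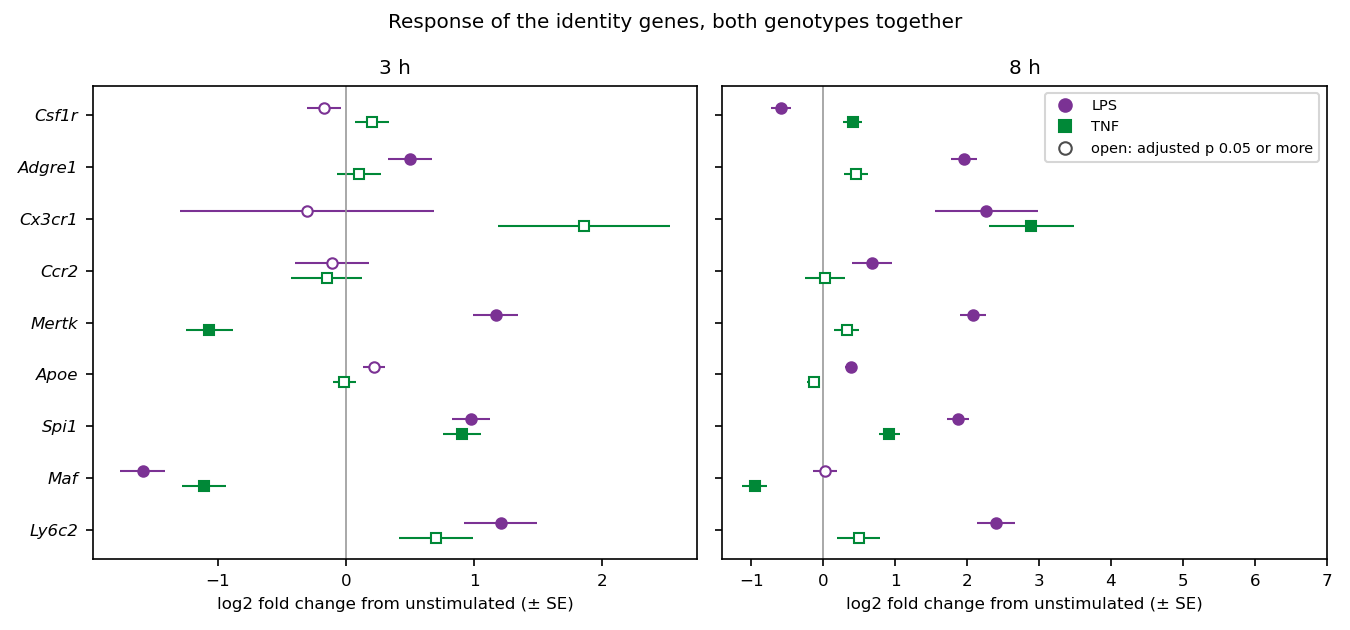
Log2 fold change from unstimulated cells (horizontal axis, ± SE, both genotypes together) at 3 h and 8 h of LPS (circles) or TNF (squares); filled symbols passed an adjusted p of 0.05. Spi1 lies to the right at both times under both stimuli, Mertk lies on opposite sides at 3 h, and Maf is at 0.02 at 8 h of LPS (-0.94 with library totals).

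Spi1 (ENSMUSG00000002111.8, mm10 chromosome 2, 91082390 to 91115756, plus strand), whose product PU.1 sets the macrophage programme, rose under both stimuli. Its unstimulated level was 176 CPM (wild-type) and 178 CPM (knock-in). After 0.5, 1, 3 and 8 h of LPS the wild-type libraries held 188, 208, 401 and 583 CPM, and the knock-in libraries 175, 200.3, 297 and 722 CPM. The same times of TNF gave 184, 206, 307 and 299 CPM in wild-type and 188, 205, 358 and 374 CPM in knock-in. All 8 libraries from 3 h or 8 h stood above all 10 others, and the pair at 8 h of LPS stood above the rest. The log2 fold change was 0.98 ± 0.15 at 3 h of LPS (adjusted p = 0.00012) and 1.88 ± 0.15 at 8 h (1.1e-07). With TNF it was 0.91 ± 0.15 at 3 h (0.0016), or 0.80 without the stand-apart library (0.018), and 0.92 ± 0.15 at 8 h (0.00034). These calls held with library totals, where the change at 8 h of LPS was 0.92. Genotype made no called difference (0.03 ± 0.07, adjusted p = 0.78, higher in 5 of 9 pairs; -0.05 with library totals).

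Maf (ENSMUSG00000055435.6, chromosome 8, 115682942 to 115707794, minus strand) fell by 3 h under both stimuli and at 8 h was near its starting level under LPS, though not with library totals. It started at 808 CPM (wild-type) and 948 CPM (knock-in). Under LPS the 4 successive times gave 749, 578, 221 and 721 CPM in wild-type, and 845, 634, 370.2 and 1078 CPM in knock-in. Under TNF they gave 786, 599.7, 397 and 471 CPM in wild-type, and 827, 628, 412 and 428 CPM in knock-in. The 3 h LPS libraries were the lowest of all 18, and the 8 h TNF libraries stayed below every library from unstimulated cells, from 0.5 h or from 1 h. Maf fell by 1.59 ± 0.17 on the log2 scale at 3 h of LPS (adjusted p = 7.2e-06), while at 8 h its change was 0.02 ± 0.17 (0.91). TNF lowered it by log2 fold changes of -1.11 ± 0.17 at 3 h (0.0011; -1.02 without the stand-apart library, 0.018) and -0.95 ± 0.17 at 8 h (0.00082). At 1 h of LPS it changed by -0.53 ± 0.17 (0.087), a value that passed with library totals (-0.67, adjusted p = 0.018). Library totals also turned the value at 8 h of LPS into a called fall (-0.94, adjusted p = 9.1e-05), a change close to that of the median gene under that scaling. Of its possible reads of 50 bases, 4.64% could also come from other genes, mostly Gm15655 on the opposite strand, which held 156 counts against 63833.

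Other transcription factors of the myeloid lineage moved in both directions. Of 17 tested from a list of 18, which includes Spi1 and Maf, 9 rose and 4 fell at 8 h of LPS (7 and 7 with library totals), with a median of 1.35. Cebpa, a factor needed for the granulocyte and monocyte lineages, fell by 4.74 ± 0.22 on the log2 scale. Klf4, which promotes monocyte differentiation, rose by 3.48 ± 0.43, and Nr1h3, the sterol-sensing receptor LXR alpha, by 3.19 ± 0.17. TNF at 8 h raised 5 and lowered 4, among them Nr1h3 (2.74 ± 0.16) and the immediate early factor Nr4a1 (-2.14 ± 0.46). For this and the later lists, the shares of all tested genes were 33.8% higher and 33.9% lower at 8 h of LPS. They were 17.1% and 14.8% at 8 h of TNF, and 10.3% and 9.46% in the knock-in against wild-type. Whether any list differed from these shares was not tested.

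Csf1r (ENSMUSG00000024621.13, chromosome 18, 61105572 to 61132149, plus strand), the receptor for CSF1 and IL-34, fell late under LPS and was highest late under TNF in wild-type cells. Before stimulation the wild-type library had 870.1 CPM and the knock-in library 841 CPM. LPS libraries of wild-type cells went through 937, 940.4, 815 and 669.8 CPM with time, and those of knock-in cells through 866, 866, 712 and 484 CPM. TNF libraries went through 896, 976, 1109.7 and 1414 CPM in wild-type, while knock-in values stayed between 860.2 and 899 CPM. The 8 h LPS libraries were the lowest of all 18, and the wild-type library at 8 h of TNF was the highest. The log2 fold change was -0.59 ± 0.13 at 8 h of LPS (adjusted p = 0.0016), and at 3 h -0.17 ± 0.13 (0.32), or -0.71 with library totals, a called fall. For 8 h of TNF it was 0.41 ± 0.13 (0.032). That rise was lost with library totals (0.16, adjusted p = 0.43), without the wild-type library at 8 h of TNF (0.16, 0.42) and without the unstimulated wild-type library (0.31, 0.25). Of the possible 50-base reads of Csf1r 14.3% also match Hmgxb3, which overlaps it on the opposite strand by 871 bases and held 4455 counts against 89557. Whether counting used strand is not given in the sources used here, and the assignment of those reads is uncertain.

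Mertk (ENSMUSG00000014361.5, chromosome 2, 128698956 to 128802894, plus strand), a TAM-family receptor for the uptake of dying cells, moved in opposite directions at 3 h. Unstimulated libraries had 135 CPM (wild-type) and 127 CPM (knock-in). LPS gave 138, 128, 255 and 459.6 CPM in wild-type and 141, 135, 334 and 649 CPM in knock-in at the 4 times. TNF gave 138, 121, 70.6 and 182 CPM in wild-type and 126, 119, 53.8 and 146 CPM in knock-in. Libraries from 3 h of TNF were the lowest of the 18 and those from 8 h of LPS the highest. LPS raised Mertk by 1.17 ± 0.18 on the log2 scale at 3 h (adjusted p = 0.00015) and by 2.08 ± 0.18 at 8 h (4e-07). TNF lowered it at 3 h (-1.07 ± 0.18, adjusted p = 0.0025), also without the stand-apart library (-0.86, 0.031), and the change at 8 h was 0.33 ± 0.18 (0.19). All 3 calls held with library totals.

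Of 15 tested genes in a list of TAM receptors and uptake of dying cells, including Mertk, 7 rose and 4 fell at 8 h of LPS (33.8% and 33.9% of all tested genes), and 3 and 7 with library totals. Axl, the other TAM receptor of macrophages, rose by 3.94 ± 0.18 at that time and by 1.22 ± 0.17 at 8 h of TNF. With 8 h of TNF 3 rose and 5 fell (2 and 6 with library totals). Gas6, the ligand that bridges TAM receptors to dying cells, fell by 1.34 ± 0.11 on the log2 scale at 8 h of TNF. Its level was also low at 8 h of LPS, with a mean of 558 CPM beside 493 CPM at 8 h of TNF. Unstimulated libraries held 1210 CPM (wild-type) and 1288 CPM (knock-in).

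Adgre1 (ENSMUSG00000004730.12, chromosome 17, 57358686 to 57483529, plus strand), which encodes the macrophage marker F4/80, rose mostly at 8 h of LPS. Starting values were 619 CPM (wild-type) and 683 CPM (knock-in). Wild-type cells under LPS held 656, 657, 1062 and 3084 CPM, and knock-in cells 719, 703, 786 and 1999 CPM. Under TNF the range was narrow, with 660.1, 654, 704 and 841 CPM in wild-type and 657, 680.0, 695 and 945 CPM in knock-in. Both 8 h LPS libraries stood above all others. The log2 fold change was 1.96 ± 0.18 at 8 h of LPS (adjusted p = 4.7e-07), a call that held with library totals (1.02). At 3 h of LPS it was 0.50 ± 0.17 (0.029), and this call was lost without the wild-type library at 3 h (0.28, adjusted p = 0.28), without the unstimulated wild-type library (0.39, 0.19) and with library totals (-0.03, 0.89). With 8 h of TNF it was 0.46 ± 0.17 (0.059), a value that passed without either library at 8 h of LPS (0.47, adjusted p = 0.0063 and 0.0062) or at 3 h of LPS (0.46, 0.038).

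Ly6c2 (ENSMUSG00000022584.12, chromosome 15, 75108158 to 75111970, minus strand), a GPI-anchored surface protein of classical monocytes, had the largest genotype difference among the 9 genes. The 250 bases before its transcription start are shown because they belong to the member that differs most by genotype, beside those of Apoe, the member whose genotypes do not overlap. Both come from RefSeq, build GRCm38.p6, on the minus strand, chr15:75111972-75112221 for Ly6c2 and chr7:19699189-19699438 for Apoe, and capitals mark the core motif of PU.1, the product of Spi1, on either strand.
Ly6c2: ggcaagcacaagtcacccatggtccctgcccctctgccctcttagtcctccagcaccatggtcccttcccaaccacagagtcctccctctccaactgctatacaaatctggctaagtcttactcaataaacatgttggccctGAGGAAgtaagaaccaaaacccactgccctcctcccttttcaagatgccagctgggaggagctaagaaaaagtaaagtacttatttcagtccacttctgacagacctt
Apoe: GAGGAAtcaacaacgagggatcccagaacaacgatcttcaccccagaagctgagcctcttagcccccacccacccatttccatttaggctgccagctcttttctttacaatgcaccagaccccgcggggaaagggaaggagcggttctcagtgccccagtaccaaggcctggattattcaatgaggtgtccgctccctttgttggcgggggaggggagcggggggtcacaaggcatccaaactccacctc
The core searched was GAGGAA on both strands. RefSeq windows reaching from 250 bases before to 50 bases after a start were found for 5 of the 9 genes (Mertk, Apoe, Cx3cr1, Ccr2 and Ly6c2), 8 windows in all. The core was in windows of Apoe and Ly6c2, though not in the Apoe window at 19698572 to 19698871, and in 28.3% of the 32851 windows of the whole table. The kB consensus bound by NF-kB, in 4.51% of all windows, was not found in these 8 windows. The 2 windows of Ly6c2 overlap and hold the same 2 sites of the core, and some windows of Apoe overlap as well. A match in these letters is a description and not a bound site.

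Before stimulation Ly6c2 was at 6.06 CPM (wild-type) and 0.717 CPM (knock-in). With LPS the wild-type values were 6.49, 9.75, 13 and 30.0 CPM and the knock-in values 1.94, 1.96, 2.75 and 6.20 CPM. With TNF they were 5.45, 5.67, 8.96 and 8.28 CPM, and 1.02, 2.37, 2.08 and 1.39 CPM. Every knock-in library lay below its wild-type partner, and only the knock-in library at 8 h of LPS reached into the wild-type range. The knock-in was lower by a log2 fold change of -2.16 ± 0.15 over the 9 conditions (adjusted p = 5.7e-07, 9 of 9 pairs lower, 95 counts against 476). LPS raised Ly6c2 by 2.40 ± 0.27 at 8 h (2.6e-06) and by 1.21 ± 0.28 at 3 h (0.0034), the latter not passing without the wild-type library at 3 h (1.14, adjusted p = 0.097). TNF changed it by 0.71 ± 0.29 at 3 h (0.13) and 0.50 ± 0.30 at 8 h (0.24). Reads of 50 bases from 14.5% of Ly6c2 positions also match other genes, mostly its neighbour Ly6c1, which held 14 counts over all libraries. Within the Ly6 family, 4 of 10 listed genes were tested. All 4 rose at 8 h of LPS under TMM factors and under library totals, with Ly6a (Sca-1) at 4.29 ± 0.66 and Ly6e at 3.77 ± 0.15, and by genotype 1 of the 4, Ly6c2, was lower and none was higher.

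Ccr2 (ENSMUSG00000049103.11, chromosome 9, 124101950 to 124113557, plus strand), the receptor that brings classical monocytes to sites of CCL2, was scarce and varied without a firm direction. Its unstimulated values were 11.0 CPM (wild-type) and 6.27 CPM (knock-in). LPS libraries had 11.8, 7.36, 7.88 and 17.1 CPM in wild-type, and 9.23, 5.09, 8.24 and 10.9 CPM in knock-in. TNF libraries had 8.54, 11.3, 6.88 and 9.18 CPM in wild-type, and 7.30, 5.28, 8.96 and 8.51 CPM in knock-in. The genotypes overlapped, and the highest value of each was at 8 h of LPS. The rise at 8 h of LPS passed narrowly (0.68 ± 0.28, adjusted p = 0.046). It passed in 10 of 24 alternatives, did not pass with DESeq2 (0.73), and was -0.27 with library totals (adjusted p = 0.37). The genotype difference was -0.38 ± 0.14 (0.068, lower in 7 of 9 pairs), and it passed with library totals (-0.45, 0.027) and without either library of the TNF 3 h pair (-0.46 without the knock-in and -0.47 without the wild-type library).

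Cx3cr1 (ENSMUSG00000052336.6, chromosome 9, 119901616 to 120068283, minus strand), the fractalkine receptor of patrolling monocytes and many tissue macrophages, was near the limit of detection. Unstimulated libraries held 5 counts in wild-type (0.619 CPM) and 1 in knock-in (0.179 CPM). Across LPS times wild-type had 1.51, 1.66, 0.639 and 3.23 CPM, and knock-in 0.162, 0.782, 0 and 0.886 CPM, the 0 allowing up to 0.686 CPM at 3 counts. Across TNF times the values were 0.442, 0.895, 2.40 and 4.50 CPM in wild-type and 0.510, 0.910, 0.625 and 1.78 CPM in knock-in. The highest library of each genotype was at 8 h of TNF, with 25 and 9 counts. The log2 fold change was 2.89 ± 0.59 at 8 h of TNF (adjusted p = 0.002) and 2.27 ± 0.72 at 8 h of LPS (0.012). The TNF call was lost without the unstimulated wild-type library (3.14, adjusted p = 0.069). The LPS call was lost without that library (2.51, 0.10), without the wild-type library at 8 h (1.84, 0.20) and with library totals (1.37, 0.097). The knock-in was lower by -1.37 ± 0.32 (0.0082, 7 of 9 pairs, 29 counts against 86). A filter of 1 CPM in 9 libraries removed the gene from testing.

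Of 6 tested genes among 7 ligands of Ccr2, Cx3cr1 and Csf1r, 6 rose at 8 h of LPS, also with library totals, with a median of 3.90. Ccl2 rose by 3.41 ± 0.19, Ccl7 by 3.41 ± 0.21 and Ccl12 by 6.21 ± 0.34, all of them ligands of CCR2. Csf1 rose by 3.08 ± 0.46 at 8 h of LPS and by 1.70 ± 0.44 at 8 h of TNF, where 3 of the 6 ligands rose and 0 fell (3 and 2 with library totals). Among 13 myeloid chemokine and chemoattractant receptors, including Ccr2 and Cx3cr1, 9 rose and 1 fell at 8 h of LPS (5 and 3 with library totals), with Ccrl2, a chemerin-binding receptor, at 7.52 ± 0.77. In a list of 12 growth factor receptors and CSF1 axis genes with 11 tested, 8 rose and 1 fell at 8 h of LPS (4 and 4 with library totals), and 8 rose and 0 fell at 8 h of TNF (5 and 0). Csf3r, the G-CSF receptor, rose by 3.78 ± 0.17 and by 1.27 ± 0.18.

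Apoe (ENSMUSG00000002985.13, chromosome 7, 19696109 to 19699166, minus strand) was higher in the knock-in in every condition. The unstimulated pair held 1307 CPM (wild-type) and 1760.2 CPM (knock-in). The LPS series gave 1419.6, 1442, 1443 and 1623 CPM in wild-type and 1934, 1954, 2165 and 2429 CPM in knock-in. The TNF series gave 1402, 1313, 1233 and 1103 CPM in wild-type and 1801, 1917, 1836 and 1735 CPM in knock-in. The genotypes did not overlap, which held in this direction for 0.46% of all tested genes. The log2 fold change by genotype was 0.51 ± 0.04 (adjusted p = 2.3e-06, higher in 9 of 9 pairs), from 0.36 to 0.65 in single pairs. With 8 h of LPS Apoe changed by 0.39 ± 0.09 (0.0013), but by -0.57 with library totals (adjusted p = 3.1e-06), so its direction depends on the scaling. At 3 h of LPS it changed by 0.22 ± 0.09 (0.051; -0.31 with library totals, a called fall). At 8 h of TNF it changed by -0.13 ± 0.09 (0.28; -0.38 with library totals, a called fall).

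**Figure D3:**
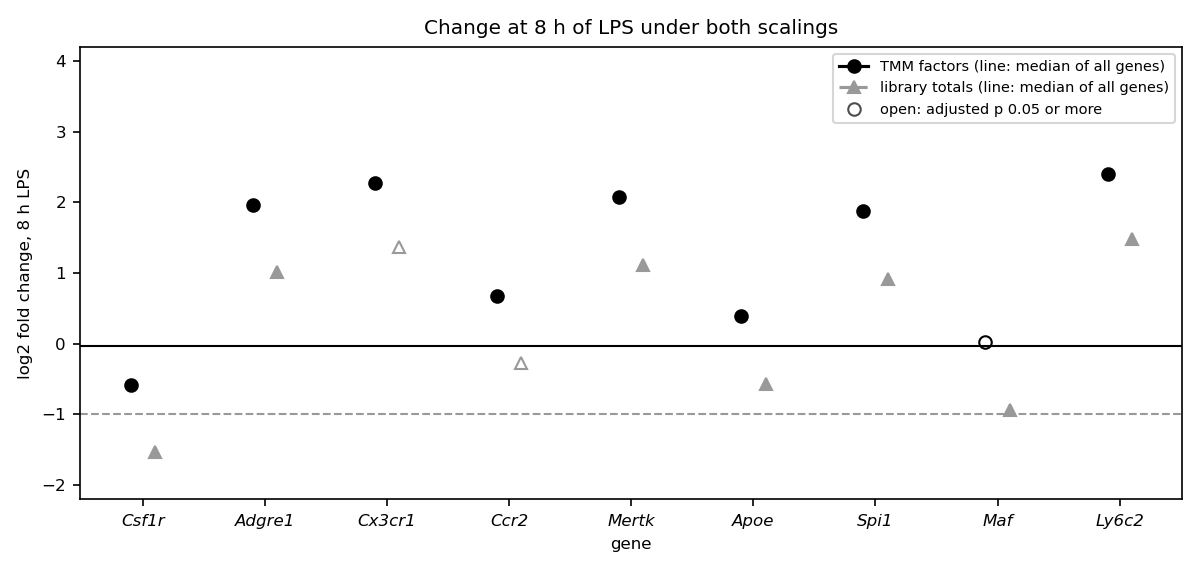
Log2 fold change at 8 h of LPS of the 9 genes with TMM factors (circles) and with library totals (triangles), with horizontal lines at the median of all tested genes under each; filled symbols passed an adjusted p of 0.05. The median line lies at -0.04 with TMM factors and -0.99 with library totals, and Ccr2, Apoe and Maf lie on different sides of 0.

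By genotype, over all 9 conditions, 1 of the 9 genes was higher in the knock-in (background 10.3%) and 3 were lower (background 9.46%). Apoe was the higher one, and Ly6c2, Cx3cr1 and Csf1r were lower. Library totals added Ccr2 to the lower ones. The 4 calls held under all alternatives in which each gene was tested (24 for Apoe, Ly6c2 and Csf1r, 23 for Cx3cr1). Csf1r was lower by a log2 fold change of -0.24 ± 0.06 (adjusted p = 0.018) in 9 of 9 pairs, from -0.05 in the unstimulated pair to -0.65 at 8 h of TNF. Maf was at 0.21 ± 0.08 (0.083, higher in 8 of 9 pairs), which passed without either library at 8 h of TNF (0.26, 0.043). Adgre1 (-0.05 ± 0.08, 0.70; 0.02 without either library at 8 h of LPS) and Mertk (0.01 ± 0.08, 0.95; -0.07 with library totals) had no called difference. In single pairs Adgre1 ranged from -0.63 at 8 h of LPS to 0.17 at 8 h of TNF.

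**Figure D4:**
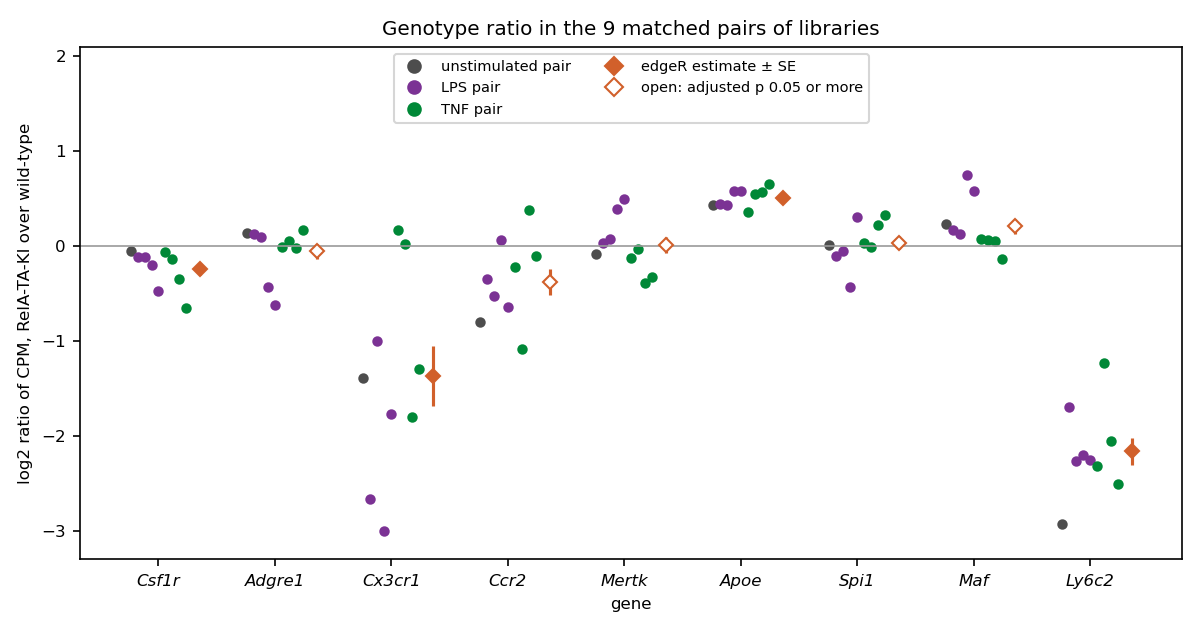
Log2 ratio of CPM, RelA-TA-KI over wild-type (vertical axis), in the 9 matched pairs of libraries for each gene, with the edgeR estimate over the 9 conditions ± SE as a diamond, filled where the adjusted p was under 0.05. All 9 Ly6c2 points lie below 0, all 9 Apoe points lie above 0, and the Mertk points lie on both sides.

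Whether the genotype difference itself varied by stimulus or time was tested. Between LPS and TNF edgeR called 0 of 9 genes and 0% of all tested genes, with 2 of the 9 at an unadjusted p under 0.05 and 0 of 9 by DESeq2 or limma-voom. The largest of these relative to its error was Mertk, with a difference of 0.47 ± 0.13 (unadjusted p = 0.0042 by edgeR, adjusted p = 0.90). Its knock-in libraries were above wild-type in 4 of 4 LPS pairs and below in 4 of 4 TNF pairs. The TNF pair furthest apart was that at 3 h (-0.39), which holds the stand-apart library, and the difference of 0.47 is not given without it. Between late times (3 and 8 h) and early times (0.5 and 1 h) 0 of 9 passed by each tool (background 0.398%), with 2 at an unadjusted p under 0.05. Csf1r had a late minus early difference of -0.31 ± 0.09 (unadjusted p = 0.0072 by edgeR, adjusted p = 0.23), and Apoe one of 0.15 ± 0.07 (0.40).

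The wider monocyte list went lower in the knock-in along with Ly6c2 and Cx3cr1. Of 15 tested monocyte markers, 3 of them members, 9 were lower and 0 higher (11 and 0 with library totals). Their median log2 fold change was -0.56, beside -0.00 over all genes. The 9 lower include Ly6c2 and Cx3cr1 themselves, and the median includes all 3 members. Chil3, a chitinase-like protein of monocytes and activated macrophages, was lower by -1.80 ± 0.13, and the integrin chain Itgal by -1.51 ± 0.14. Without the members, the summed level of this list was lower in 9 of 9 pairs. It was 378 to 2121 CPM in wild-type and 208 to 1704 CPM in knock-in. Ms4a4c, the most abundant, ranged from 1.77 to 930 CPM in wild-type and 0.625 to 954 CPM in knock-in. Vcan ranged from 12.6 to 457 CPM and from 3.72 to 454 CPM. The highest values of these 2 genes were thus similar in both genotypes. Neutrophil markers moved with it, with 8 of 12 tested lower and 1 higher, and a sum of 265 to 540.0 CPM in wild-type and 193 to 371 CPM in knock-in, lower in 9 of 9 pairs. None of the 13 neutrophil markers was at 0 counts, and their part in the difference of Ly6c2 and Cx3cr1 was not tested. The 9 markers of dendritic cells, none at 0 counts, summed to 6.43 to 25.2 CPM in wild-type and 2.91 to 28.3 CPM in knock-in, lower in 8 of 9 pairs. The 9 markers of stromal and endothelial cells, with Lum at 0 counts, were lower in sum in 6 of 9 pairs. Their sums were 166 to 1101 CPM in wild-type and 85.2 to 2173 CPM in knock-in. Kdr, the most abundant of them, ranged from 44.7 to 889 CPM in wild-type and 56.9 to 2076 CPM in knock-in. The collagen genes Col1a1 and Col1a2 held 43.8 to 74.0 and 53.3 to 109 CPM in wild-type. In knock-in they held 6.34 to 31.8 and 7.13 to 36.8 CPM. Of the tested markers, 2 of 4 for dendritic cells were lower and 0 higher. For stromal and endothelial cells 3 of 6 were lower and 0 higher, with a median of -1.06. Their part was not tested either.

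Macrophage markers moved in both directions. Their sum was 35908 to 46064 CPM in wild-type and 38203 to 60543 CPM in knock-in, higher in 9 of 9 pairs. Much of it was Gpnmb, the most abundant, with 17288 to 20357 CPM in wild-type and 19244.5 to 30521 CPM in knock-in. Lyz2 had a lower median in knock-in (5480 CPM) than in wild-type (6153 CPM). The sum does not show that the list as a whole was higher. Of 17 tested, which include Adgre1, Csf1r and Mertk, 7 were higher and 4 lower in the knock-in. The Fc receptor Fcgr1 was higher by 0.92 ± 0.09, while the scavenger receptor Marco was lower by -3.52 ± 0.26 and the sialic acid-binding Siglec1 by -0.74 ± 0.08. After 8 h of LPS 11 of the 17 rose and 3 fell (6 and 8 with library totals), and at 8 h of TNF 11 rose and 2 fell (3 and 3). None of the 19 listed macrophage markers was at 0 counts.

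Genes of lipid transport were higher in the knock-in along with Apoe. In a list of apolipoproteins and lipid efflux with 12 tested, Apoe included, 7 were higher and 0 lower, also with library totals, with a median of 0.34. Lpl, which releases fatty acids from lipoproteins, was higher by 1.16 ± 0.04, and the cholesterol exporters Abcg1 and Abca1 by 1.13 ± 0.06 and 0.89 ± 0.16. Of the 12, 5 rose and 3 fell at 8 h of LPS (1 and 8 with library totals). The summed markers of 2 other cell classes were also higher in the knock-in in 9 of 9 pairs, each sum resting mostly on 1 gene. Erythroid and megakaryocyte markers, mostly Pf4, summed to 133 to 155 CPM in wild-type and 168 to 231 CPM in knock-in. Lymphocyte markers, mostly Il7r, summed to 89.7 to 171 CPM in wild-type and 117 to 239 CPM in knock-in. Only 1 of 7 and 2 of 10 genes of these lists were tested, of which 1 in each list was called higher and 0 lower. The sums do not show that the lists as a whole were higher. None of the listed markers was at 0 counts over all libraries, and their part in the difference of Apoe was not tested.

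**Figure D5:**
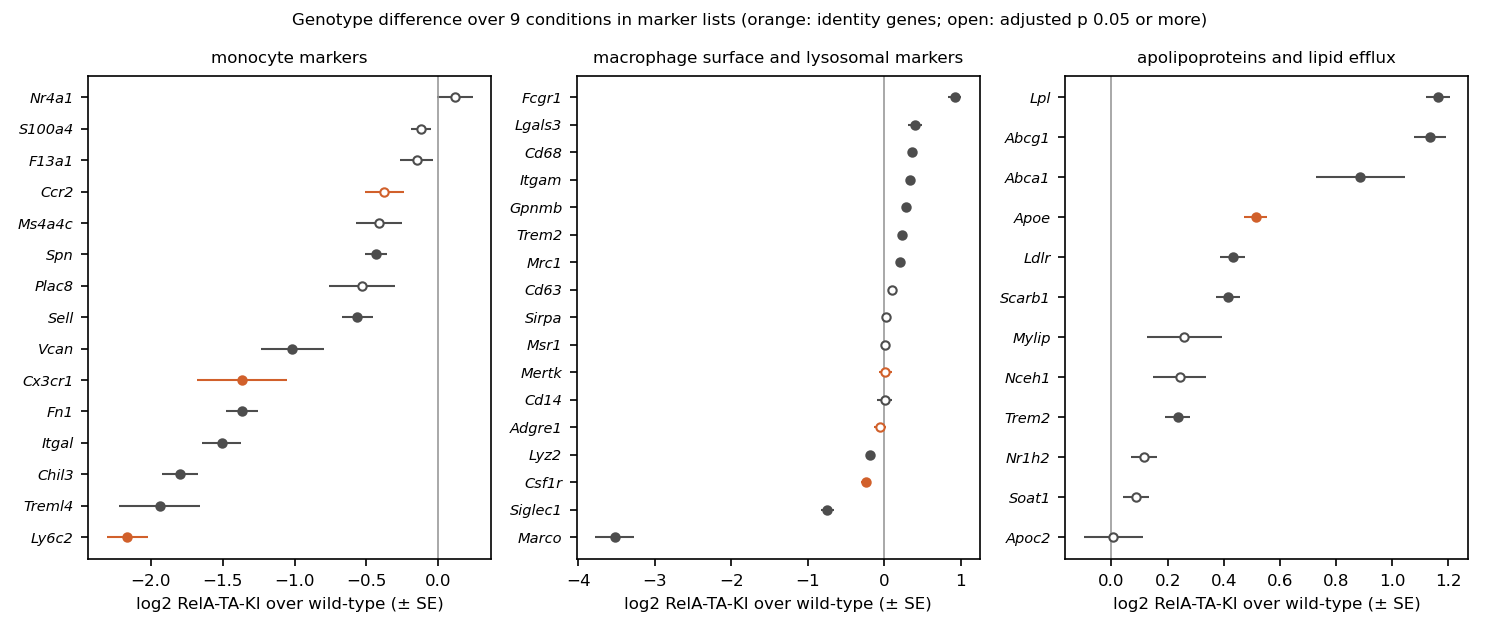
Log2 ratio of RelA-TA-KI over wild-type over 9 conditions (horizontal axes, ± SE) for each tested gene of 3 lists, with members in orange and open symbols where the adjusted p was 0.05 or more. In the monocyte list 14 of 15 points lie below 0, and in the list of lipid transport the points lie at or above 0.

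LPS and TNF were then compared directly at matched times. On average over the 4 times 5 of 9 genes were higher with LPS (background 23.7%) and 1 was lower (background 25.2%). Mertk was higher by 1.05 ± 0.09 on the log2 scale (adjusted p = 1.3e-06), Ly6c2 by 0.83 ± 0.14 (0.00034) and Adgre1 by 0.50 ± 0.09 (0.00039). Spi1 was higher by 0.25 ± 0.07 (0.013) and Apoe by 0.22 ± 0.04 (0.00085), and with library totals these became -0.06 (not called) and -0.08 (called lower). Adgre1 fell short with library totals. Csf1r was lower with LPS (-0.34 ± 0.07, adjusted p = 0.00085), also with library totals. Maf, Ccr2 and Cx3cr1 were not called, with 0.11 ± 0.08 (-0.20 with library totals, called lower), 0.17 ± 0.15 (-0.14 with library totals) and -0.38 ± 0.36.

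At 8 h 6 of 9 genes were higher with LPS than with TNF and 1 was lower (backgrounds 30% and 28.4%). The differences were 1.90 ± 0.26 for Ly6c2, 1.76 ± 0.18 for Mertk, 1.5 ± 0.17 for Adgre1, 0.98 ± 0.17 for Maf, 0.96 ± 0.15 for Spi1 and 0.52 ± 0.09 for Apoe, and -1.0 ± 0.14 for Csf1r. The Maf and Spi1 differences did not pass with library totals (0.26 and 0.25), and that of Apoe was then -0.18, called lower with LPS. For Ccr2 the difference was 0.65 ± 0.29 (adjusted p = 0.068; -0.05 with library totals), and for Cx3cr1 it was -0.62 ± 0.52 (0.33), which was called with library totals (-1.30, 0.036).

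The tested genes whose log2 CPM followed each member most closely over the 18 libraries, among 8286 genes, are given as a description. The libraries share stimuli and genotypes, so high values are common. For Spi1 it was Rhog (Pearson r = 0.99), for Adgre1 Csf3r (0.98), for Mertk Elmod2 (0.97), for Csf1r Ppp1r12b (0.96), for Apoe Lgmn (0.96) and for Maf Wipf1 (0.94). For Ly6c2 it was the class II antigen presentation gene H2-Ab1 (0.92), followed by Lox (0.92) and Cd74 (0.91). The scarce Cx3cr1 and Ccr2 reached 0.82 with Dapk1 and 0.81 with Impa1. Among the members themselves, Adgre1 and Spi1 (0.85) and Adgre1 and Mertk (0.79) were closest, and Csf1r and Apoe were the most opposed (-0.76).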

How the data were processed

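Per the labels' protocols, poly(A) RNA gave KAPA stranded libraries with single-end reads of 50 bases. The authors deposited raw counts per gene, not normalized, and gave mm10 coordinates. The submitters' processing notes name cutadapt 1.12, STAR and featureCounts 1.5.0. Sources used here give neither annotation release nor strand setting, and reads of overlapping genes are less certain. Of 45706 genes, 24529 were at 0 counts in every library and 563 had no symbol. From the counts, edgeR 4.0.16 in R 4.3.3 was run with TMM factors, filterByExpr (minimum count 10, minimum total 15) and robust quasi-likelihood tests, adjusted by Benjamini-Hochberg over 11308 genes at 0.05. Condition and genotype were terms of the model (8 residual degrees of freedom, 6 for genotype effects by stimulus or time). The response over 4 times was an F test, with its direction taken at the time of the largest change. Standard errors, approximate, are the size of the change divided by the root of its F statistic. The log2 CPM used a prior count of 0.5. Alternatives were DESeq2 size factors, library totals, no filter, 1 CPM in 9 libraries, DESeq2 1.42.0, limma-voom (limma 3.58.1) and leaving out each of the 18 libraries. The scripts were tested on simulated data. The members, the 18 gene lists and the tests were chosen with earlier results of these data known. Besides the members, the text names at most 3 genes per list and comparison, those with the largest change among genes past 0.05 whose mean log2 CPM reached 1. It also names the most abundant gene of each marker list whose sum is given, further genes beside some of these sums, and the genes most like each member. Libraries held 4663650 to 6721917 counts, and the number of counts limits the precision of scarce genes.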

Additional observations from a re-analysis of the deposited data

How the results depend on the processing

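Of 488 member values recomputed with all libraries, 453 kept their direction and side of the threshold, 10 lost the call, 9 gained one and 16 changed sign. Leaving out 1 library gave 1494 values, of which 1416 kept both, 39 lost the call, 21 gained one and 18 changed sign. For the responses over 4 times, only the side of the threshold was compared in these counts, and not the direction. With library totals the log2 fold changes that changed sign were Adgre1 -0.033, Apoe -0.31 at 3 h of LPS, Ccr2 -0.27, Apoe -0.57 and Maf -0.94 at 8 h of LPS, Adgre1 -0.028 at 3 h and Ccr2 -0.22 at 8 h of TNF. For LPS minus TNF they were Ccr2 -0.14, Apoe -0.083, Spi1 -0.060 and Maf -0.20 on average and Ccr2 -0.049 and Apoe -0.18 at 8 h, and by genotype Mertk -0.068 and Spi1 -0.045. Without a filter Maf was at -0.033 at 8 h of LPS. Leaving out 1 library gave -3.45 to 0.12 for Cx3cr1 and -0.34 to 0.20 for Ccr2 at 3 h of LPS, and -0.23 to 0.18 for Maf at 8 h of LPS. It gave -0.0031 to 0.22 for Adgre1, -0.55 to 0.30 for Ccr2 and -0.057 to 0.037 for Apoe at 3 h of TNF, -0.16 to 0.33 for Ccr2 at 8 h of TNF, and by genotype -0.080 to 0.023 for Adgre1 and -0.045 to 0.062 for Mertk. Counts of called genes ranged with 1 library left out from 52 to 116 (main 104) at 0.5 h and 343 to 981 (774) at 1 h of LPS. For TNF they ranged from 19 to 47 (43), 35 to 155 (121), 533 to 2010 (1522) and 2337 to 4143 (3611) over the 4 times. For the genotype difference between LPS and TNF the range was 0 to 1 and between late and early 12 to 77 (45). The lowest counts at 0.5 h of LPS and at 0.5, 1 and 3 h of TNF came without the unstimulated wild-type library, that at 1 h of LPS without its own wild-type library, that at 8 h of TNF without its own knock-in library, and the lowest and highest for late against early without the wild-type libraries at 0.5 h and 8 h of LPS. DESeq2 called 67 and 190 genes at 0.5 and 1 h of TNF, 4 for the genotype difference between LPS and TNF (3 without a filter) and 122 for late against early (147 without a filter, 29 with library totals). Library totals turned the split of calls at 8 h of LPS from 3827 higher and 3834 lower to 1737 and 7657, at 3 h of LPS from 2809 and 2571 to 1386 and 6646, at 1 h from 481 and 293 to 369 and 582, at 3 h of TNF from 859 and 663 to 591 and 1266, and at 8 h of TNF from 1934 and 1677 to 1158 and 3510. They turned LPS minus TNF from 2681 and 2848 to 1172 and 7057, at 8 h from 3391 and 3215 to 1439 and 6837, and genotype from 1162 and 1070 to 705 and 1823. Libraries of the same condition were already paired by the condition term of the model, and the labels carry no other replicate numbers. The cause of these changes was not tested. Few reads limit Cx3cr1, Ly6c2 and Ccr2.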
